A study of Capra hircus with 12 samples.

Results

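The cell cycle and mitosis gene families are the genes that copy the chromosomes, pull them apart and divide the cell. They were taken by symbol from 6 deposited gene tables of goat mammary gland: every symbol beginning with CDC or CDK and a digit, CDCA, CCNA, CCNB, CCND or CCNE and a digit, KIF and a digit, CENP, MCM and a digit, BUB, AURK, E2F and a digit, POLD, POLE, or RFC and a digit, together with CIT and TONSL, which were added by name. The rule found 52 of the 4974 genes listed in at least 1 table. No E2F, POLE or RFC symbol was found among them.

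The study compared 2 Canary Island dairy breeds, Majorera and Palmera, on an adequate diet or under feed restriction with wheat straw and a vitamin and mineral supplement. The groups were Majorera control (MC), Majorera restricted (ME), Palmera control (PC) and Palmera restricted (PE), and each held 3 goats in milk, biopsied on the left side of the udder on day 22. The goats were in their peak of lactation and were drawn at random from larger groups, and exact ages are not given in the sources used here. All control goats shared a pen and all restricted goats shared another, so diet and pen cannot be told apart. Each table holds 1 pair of groups and only the genes that passed an unadjusted p of 0.05 in the authors' test, so members left out of a table could not be compared there, and a pass at that same threshold was largely fixed by the listing. MC vs. PE and ME vs. PC differ in both breed and diet, which cannot be told apart in these comparisons.

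As background, a cell enters the cycle when D-type cyclins activate their kinases, licenses and opens its origins of replication with the MCM helicase, and divides under CDK1, the checkpoint kinases, the centromere proteins and the mitotic kinesins. Most secretory cells of a lactating gland have left the cycle, and messages of the mitotic machinery are rare in whole tissue. Many genes that carry these names have other work. KIF1C, KIF1B and KIF13B move cargo along microtubules, CDK8 and CDK19 act on transcription, and CDC42EP3 and CDC42EP4 bind the GTPase CDC42.

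The values are expected counts, which are estimates of the reads or read pairs per gene. Which of these they count is not given in the sources used here. Levels are given as CPM, that is counts per 1000000 of library size, with the library size taken as the mapped reads times a trimmed-mean (TMM) factor. This effective size lay between 28320141 and 83729224 per library. PE had 131733113 over its 3 libraries, more than MC with 87935360 or PC with 95735108, and ME had 171374622, yet 5 of the 43 members with values in PE were at 0 in each PE library. Secretory epithelium markers, caseins among them, took between 76305 and 624234 CPM in the 12 libraries, so the labelled tissue had its defining messages throughout, with 378491 CPM as the lowest control value and 393757 CPM as the highest restricted one. ME replicate 2 stood apart, with the largest effective size and with 169 CPM summed over 8 macrophage markers against 54.7 and 81.6 CPM in the other ME libraries. Of the 52 members, 13 have counts in all 12 libraries, 18 in 9 and 21 in 6, and 30 exceed 100 counts in at least 1 library. In bulk tissue, fewer cells of a type and less RNA per cell cannot be told apart.

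Over both breeds, the 13 members with all 12 libraries leaned to lower levels under feed restriction. Log2FC was negative for 12 of 13, where 48.3% of the 1408 genes tested were negative, with a median of -0.88 against 0.21 over all of them, and with mapped reads alone KIF17 turned positive. With edgeR's quasi-likelihood test and Benjamini-Hochberg adjustment, 5 of the 13 were called at an adjusted p under 0.05, where 28.6% of the genes tested were called. TONSL, CIT, CDK16 and KIF1C fell and CDK19 rose in the restricted goats, and DESeq2 called 5 as well, where it called 44.9% of the genes. At an unadjusted p under 0.05, 7 of 13 were lower and 1 of 13 higher, where 36.8% and 40.6% of the genes were. All 13 had entered at least 2 tables by differing between groups, so that these shares describe genes already selected. Markers of other cell types moved with diet as well. Only markers with counts in all 12 libraries were summed, and these had likewise entered tables by differing between groups, so that their shifts describe genes already selected. The 4 of 8 adipocyte markers with counts in all 12 libraries summed to 1.25 to 12.5 CPM in the control libraries and 0.412 to 0.817 CPM in the restricted ones, without overlap. The 4 of 10 myoepithelial markers summed to 162 to 201 CPM in MC against 64.9 to 95.2 CPM in ME, and to 104 to 182 CPM in PC against 45.0 to 113 CPM in PE, where the Palmera groups overlapped. The 6 of 14 markers of the secretory epithelium summed to 378491 to 624234 CPM in the control libraries and 76305 to 393757 CPM in the restricted ones, with overlap. Their part in the diet values was not tested.

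TONSL binds newly copied chromatin and helps to mend broken replication forks. Its levels were 3.40, 2.81 and 4.06 CPM in MC and 0.869, 1.36 and 0.844 CPM in ME. In PC they were 5.0, 3.63 and 1.13 CPM, and in PE 0.470, 1.05 and 1.44 CPM. The Majorera groups did not overlap, while PC replicate 3 fell among the PE libraries. The Log2FC was -1.74 ± 0.28 (SE, n = 3 per group) in MC vs. ME and -1.71 ± 0.55 in PC vs. PE. Over both breeds it was -1.72 ± 0.34, with an edgeR adjusted p of 0.0219 and an exact two-sided permutation p of 0.00649 (6 against 6). TONSL and CIT were chosen by name with earlier results known, so their calls are no independent support. TONSL was also listed in every comparison of a control with a restricted group, so a diet difference was largely fixed by the listing.

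CIT encodes citron kinase, which acts at the midbody when the daughter cells separate. Its levels were 1.96, 1.16 and 1.09 CPM in MC and 1.39, 0.812 and 1.22 CPM in ME. In PC they were 4.10, 5.26 and 3.46 CPM, and in PE 0.900, 1.02 and 0.898 CPM. Every PC library was above every other library, and MC overlapped ME. The Log2FC was -2.19 ± 0.25 in PC vs. PE (edgeR adjusted p = 0.0706), 1.58 ± 0.31 in MC vs. PC (adjusted p = 0.548) and 1.93 ± 0.29 in ME vs. PC (adjusted p = 0.0935). These 3 comparisons share the PC libraries, and CIT was listed in them and in no other. A PC group that differs was thus largely fixed by the listing. The CIT values for diet and for the interaction likewise describe a gene already selected. The edgeR test called CIT in PC vs. PE without PC replicate 1 (adjusted p = 0.0153), without PC replicate 3 (0.0416) and without PE replicate 2 (0.0385). Over both breeds its Log2FC was -1.25 ± 0.21 (edgeR adjusted p = 0.0107, exact permutation p = 0.0152). The interaction of breed and diet was -1.87 ± 0.42 (edgeR adjusted p = 0.844).

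**Figure D1:**
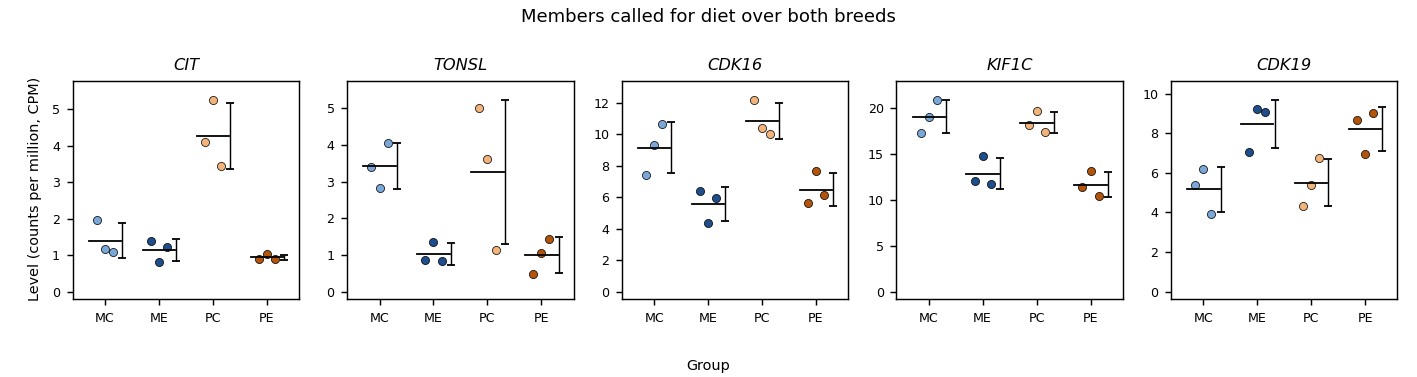
Level in CPM (y axis) by group (x axis) of the 5 members called for diet over both breeds. Points are libraries, horizontal lines are group means and bars are 1 SD (n = 3). CIT is high in PC alone, TONSL, CDK16 and KIF1C are lower and CDK19 is higher in ME and PE, and PC replicate 3 lies low for TONSL at 1.13 CPM. CIT was listed in comparisons with PC alone, and the others in comparisons of a control with a restricted group alone. These patterns were thus largely fixed by the listing.

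Among the kinases that bear the CDK name but act outside the core cycle, the paralogs CDK8 and CDK19 had Log2FC of opposite sign in MC vs. ME and MC vs. PE, though with mapped reads alone both were positive in MC vs. ME. Both are kinases of the Mediator complex, which links transcription factors to RNA polymerase II. CDK19 ran from 3.92 to 6.73 CPM in the 6 control libraries (median 5.40 CPM) and from 6.94 to 9.23 CPM in the 6 restricted libraries (median 8.84 CPM), without overlap. Its Log2FC over both breeds was 0.65 ± 0.15 (edgeR adjusted p = 0.0447, exact permutation p = 0.00216, the smallest that 6 against 6 allows). CDK19 was listed in every comparison of a control with a restricted group and in no other. Its separation by diet was thus largely fixed by the listing. CDK8 measured 5.45, 6.57 and 4.48 CPM in MC, 3.6, 3.16 and 3.82 CPM in ME and 3.07, 3.47 and 3.37 CPM in PE. The MC libraries lay above all ME and PE libraries. Its Log2FC was -0.65 ± 0.20 in MC vs. ME (adjusted p = 0.238) and -0.75 ± 0.20 in MC vs. PE (adjusted p = 0.146), but 0.19 in MC vs. ME when counts were scaled by mapped reads alone.

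CDK16, a kinase of vesicle transport and of sperm formation in mice, ran from 7.44 to 12.2 CPM in the controls (median 10.2 CPM) and from 4.36 to 7.66 CPM in the restricted libraries (median 6.03 CPM). Only the lowest control and the highest restricted library crossed. Its Log2FC over both breeds was -0.73 ± 0.14 (edgeR adjusted p = 0.0181, exact permutation p = 0.00433). CDK16 was listed in the same comparisons as CDK19, so that its diet values too describe a gene already selected. In MC and PE, CDK10 measured 4.17 to 6.25 CPM and 2.68 to 3.87 CPM, CDK14 7.38 to 9.96 CPM and 5.05 to 7.11 CPM, and CDK18 1.03 to 1.55 CPM and 0.545 to 0.879 CPM. Their Log2FC were -0.57 ± 0.24, -0.52 ± 0.20 and -0.90 ± 0.31 in MC vs. PE, with adjusted p of 0.369, 0.287 and 0.237, and MC and PE did not overlap. CDK18 was also lower in PC, at 0.375, 0.657 and 0.409 CPM, than in MC, at 1.03, 1.34 and 1.55 CPM (Log2FC -1.45 ± 0.35, adjusted p = 0.598). CDK12, a kinase of the elongating polymerase, measured 4.07, 5.13 and 4.03 CPM in MC and 6.79, 5.6 and 6.95 CPM in PC (Log2FC 0.53 ± 0.22, adjusted p = 0.855).

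The calls over both breeds depended on the library scaling and on some libraries. With mapped reads alone, the Log2FC of all genes moved by a median of 0.42 and CDK19 was the 1 member still called. The number called was 3 without MC replicate 1, 3 without PC replicate 2, 1 without PE replicate 1 (CIT) and 2 without PE replicate 3 (CIT and TONSL). The shares of all genes called in these fits are not given here.

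The listed members of the mitotic machinery proper were scarce everywhere and close to 0 in PE. Of this kind, 5 members have counts in all 12 libraries, namely the motors KIF11 and KIF20A, the centromere proteins CENPF and CENPN, and CDC20, which starts anaphase. Their summed level was 3.02, 2.18 and 0.883 CPM in MC, 1.97, 1.66 and 1.07 CPM in PC and 0.225, 0.272 and 0.187 CPM in PE. In ME it was 0.248, 3.93 and 0.697 CPM. All PE libraries thus lay below all control libraries, and ME replicate 2 was the highest library of the series while the other ME libraries lay below all controls. All 5 members were listed in every comparison with PE and in no other. A PE group that differs was thus largely fixed by the listing.

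**Figure D2:**
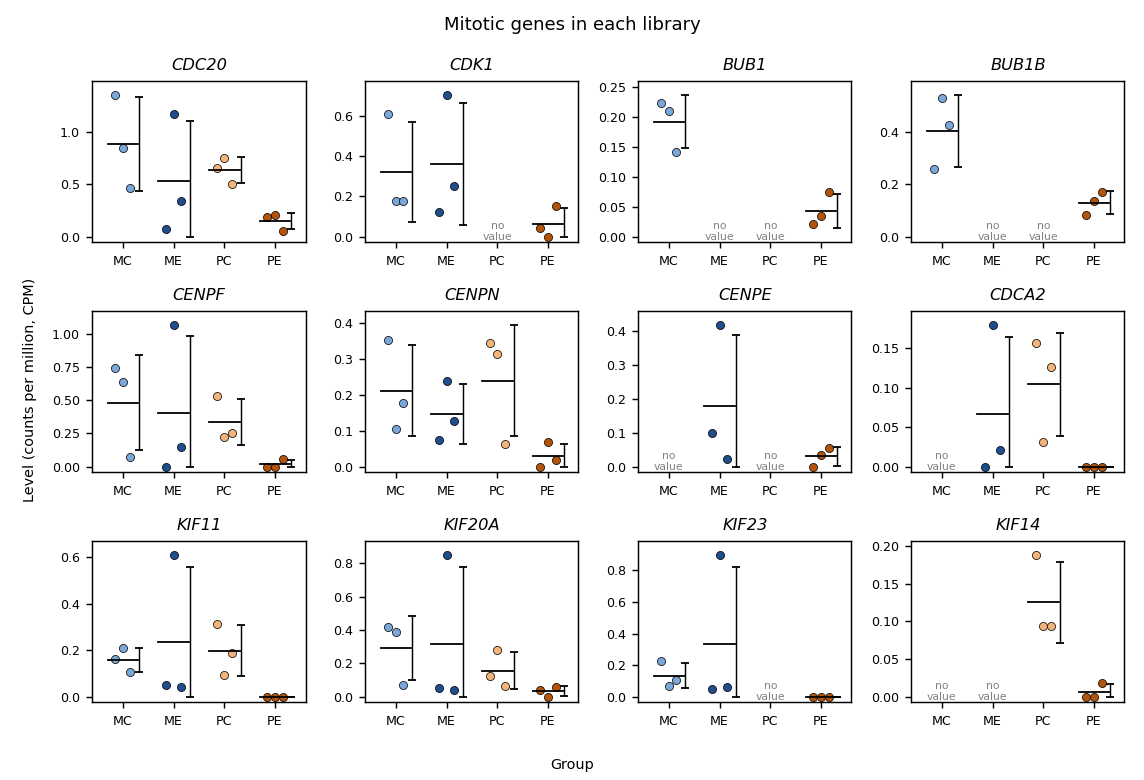
Level in CPM (y axis) by group (x axis) of 12 mitotic genes. Points are libraries, horizontal lines are group means and bars are 1 SD (n = 3), not drawn below 0, and a group without counts in a deposited table is marked as having no value. PE lies at or near 0 throughout, and within ME replicate 2 is the highest library for each gene that has values there. Every gene shown was listed in a comparison with PE, so that a differing PE group was largely fixed by the listing.

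KIF11, the motor that pushes the spindle poles apart, had counts of 5, 6 and 3 in MC, 10, 3 and 6 in PC, 2, 51 and 2 in ME and 0, 0 and 0 in PE. With the PE group set at a floor of 3 counts (0.0228 CPM), the ratio for KIF11 was 8.71 for PC over PE and 6.99 for MC over PE. Such ratios take the counts of the other group as they stand and leave out the spread between goats. They are thus no strict lower bounds. The edgeR adjusted p was 0.102 in PC vs. PE and 0.0937 in MC vs. PE. KIF23, a motor of the central spindle, had 7, 2 and 3 counts in MC, 2, 75 and 3 in ME and 0, 0 and 0 in PE. At the same floor its ratio was 5.99 for MC over PE (edgeR adjusted p = 0.124).

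KIF20A, which works at the midzone late in mitosis, had 13, 11 and 2 counts in MC, 4, 9 and 2 in PC, 2, 71 and 2 in ME and 2, 0 and 3 in PE. Its Log2FC was -2.88 ± 0.82 in MC vs. PE and -1.98 ± 0.82 in PC vs. PE. KIF14, which brings citron kinase to the midbody, had 6, 3 and 3 counts in PC and 0, 0 and 1 in PE, a ratio of 16.5 with a 95% counting interval of 2.44 to 706. The chromosome arm motors KIF4A and KIF22 had 15, 7 and 1 counts in PC against 0, 3 and 3 in PE, and 33, 10 and 17 counts in MC against 13, 6 and 18 in PE. KIF4A overlapped between its groups, and KIF22 did not once the depth of the libraries was taken into account, at 0.352 to 1.06 CPM in MC against 0.204 to 0.337 CPM in PE. No mitotic kinesin passed the adjusted threshold in any comparison of 2 groups with all libraries.

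CENPF, a large protein of the outer kinetochore that builds up before division, had 23, 18 and 2 counts in MC, 17, 7 and 8 in PC, 0, 89 and 7 in ME and 0, 0 and 3 in PE. Over the 3 libraries, MC exceeded PE by a ratio of 21.5 (95% counting interval 6.87 to 108) and PC exceeded PE by 14.7 (4.59 to 74.9). Such intervals cover counting error only, and they are too narrow if both reads of a pair were counted. The Log2FC with the spread between goats was -4.25 ± 1.08 in MC vs. PE (edgeR adjusted p = 0.129) and -3.71 ± 0.85 in PC vs. PE (adjusted p = 0.102). CENPN, which reads the centromeric nucleosome, had 11, 3 and 5 counts in MC, 11, 10 and 2 in PC, 3, 20 and 6 in ME and 0, 2 and 1 in PE. CENPN in PC replicate 3 overlapped PE.

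CDC20, the activator of the ligase that ends metaphase, had 42, 24 and 13 counts in MC, 21, 24 and 16 in PC, 3, 98 and 16 in ME and 9, 6 and 3 in PE. Its Log2FC was -2.66 ± 0.56 in MC vs. PE (edgeR adjusted p = 0.0982, DESeq2 adjusted p = 0.0272) and -2.16 ± 0.46 in PC vs. PE (adjusted p = 0.102). CDK1, the kinase that drives entry into mitosis, had 19, 5 and 5 counts in MC, 5, 59 and 12 in ME and 2, 0 and 8 in PE. The checkpoint kinases BUB1 and BUB1B, which hold anaphase until every chromosome is attached, had 7, 6 and 4 counts and 8, 15 and 12 counts in MC, against 1, 1 and 4 and 4, 4 and 9 counts in PE. Both lay lower in each PE library than in each MC library in CPM, with Log2FC of -2.03 ± 0.58 (adjusted p = 0.162) and -1.62 ± 0.45 (adjusted p = 0.159). CDCA2, which recruits a phosphatase to chromosomes late in mitosis, had 5, 1 and 4 counts in PC, 0, 15 and 1 in ME and 0, 0 and 0 in PE. With the PE group set at a floor of 3 counts, its ratio was 4.59 for PC over PE, which is no strict lower bound.

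By role, PC vs. PE listed 4 of the 8 mitotic kinesins, 2 of the 5 CENP genes and 2 of the 4 members among the S-phase and mitotic cyclins, kinases and activators. All 8 were lower in PE at an unadjusted p under 0.05. MC vs. PE listed 4, 2 and 3 of them, and again all 9 were lower in PE. The direction in these lists was the same when scaled by mapped reads alone. Both comparisons share the PE libraries, and MC vs. PE differs in breed as well as diet. Over all members listed, 18 of 25 were lower and 6 of 25 higher in PC vs. PE at an unadjusted p under 0.05, where 44.3% of the 2262 genes were lower and 47.8% higher. In MC vs. PE, 20 of 27 were lower and 7 of 27 higher, where 49.9% of the 1869 genes were lower and 41.4% higher. The edgeR test called 0 members at an adjusted p under 0.05 in either, where 0.0442% and 0.589% of the genes were called, and DESeq2 called CIT in PC vs. PE (9.73% of the genes) and CDC20 and TONSL in MC vs. PE (10.1%). The groups did not overlap for 17 of 25 and 24 of 27 members, where 73.2% and 70.6% of the genes did not. In MC vs. PE edgeR called CENPF without MC replicate 3 and KIF11 and CDC14B without PE replicate 2, and 11 members were lower without PE replicate 1. In PC vs. PE 3 members were higher without PE replicate 1 and likewise without PE replicate 3.

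In Majorera, the mitotic genes were not listed in MC vs. ME. None of the mitotic kinesins and CENP genes was listed there, and CDCA3 was the 1 member of the checkpoint and CDCA group that was. CDCA3, part of a ligase that removes the kinase WEE1, measured 3.62, 4.57 and 1.73 CPM in MC and 1.39, 1.48 and 1.39 CPM in ME (Log2FC -1.23 ± 0.34, edgeR adjusted p = 0.207). In ME vs. PE, 8 of 15 members were lower and 1 of 15 higher in PE at an unadjusted p under 0.05, where 42.9% and 30.9% of the 920 genes were. The edgeR test and DESeq2 each called 0 members in ME vs. PE, where edgeR called 0.0% of the genes and DESeq2 3.37%. ME and PE did not overlap for 4 of 15 members, where 54.9% of the genes did not.

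That comparison moved with single libraries. Without ME replicate 2, 4 of 15 members were lower and 0 higher at an unadjusted p under 0.05. The number lower was 13 without ME replicate 1, 3 without PE replicate 1, 5 without PE replicate 2 and 3 without PE replicate 3. Without ME replicate 2 the Log2FC of CENPF went from -4.17 ± 1.66 to -1.69 ± 1.47, that of KIF20A from -3.16 ± 1.37 to -0.27 ± 0.92 and that of CDC20 from -1.98 ± 0.92 to -0.61 ± 0.74. CENPT and KIF18B, a centromere protein and a motor that shortens microtubules, had 0, 16 and 0 and 0, 13 and 1 counts in ME and 0 in every PE library, so that nearly all their reads came from that 1 goat. CENPE, the motor at the kinetochore, had 4, 35 and 1 counts in ME and 0, 1 and 3 in PE. CENPC, which anchors the kinetochore to DNA throughout the cycle, did not rest on that goat: it measured 2.83, 2.68 and 3.00 CPM in ME and 1.88, 1.97 and 1.61 CPM in PE. CENPC did not overlap between the groups, with a Log2FC of -0.63 ± 0.19 (adjusted p = 0.732), and of -0.69 ± 0.21 without ME replicate 2. Nor did CENPN, at 0.0745, 0.239 and 0.127 CPM in ME and 0, 0.0681 and 0.0187 CPM in PE.

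Macrophage markers moved with ME replicate 2 as well. The 8 of 20 listed markers with counts in all 12 libraries summed to 22.5 to 37.5 CPM in MC, 19.6 to 31.5 CPM in PC, 54.7 to 169 CPM in ME and 28.9 to 63.0 CPM in PE. ME replicate 2 had the highest level of both macrophage and mitotic genes, whereas the PE range overlapped the controls for macrophage markers. For T and NK cells, 2 of 15 markers summed to 3.55 to 9.60 CPM in MC, 10.4 to 18.6 CPM in ME, 4.34 to 6.10 CPM in PC and 5.66 to 12.3 CPM in PE. ME replicate 2 also stood apart from the other ME libraries in the 5 of 10 fibroblast markers, at 153 CPM against 33.0 and 46.2 CPM, and had the lowest sum of secretory epithelium markers of all 12 libraries, at 76305 CPM against 207492 and 285280 CPM in the other ME libraries. These sums cover only markers that had entered tables by differing between groups. The part of these cell types in the mitotic counts was not tested.

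**Figure D3:**
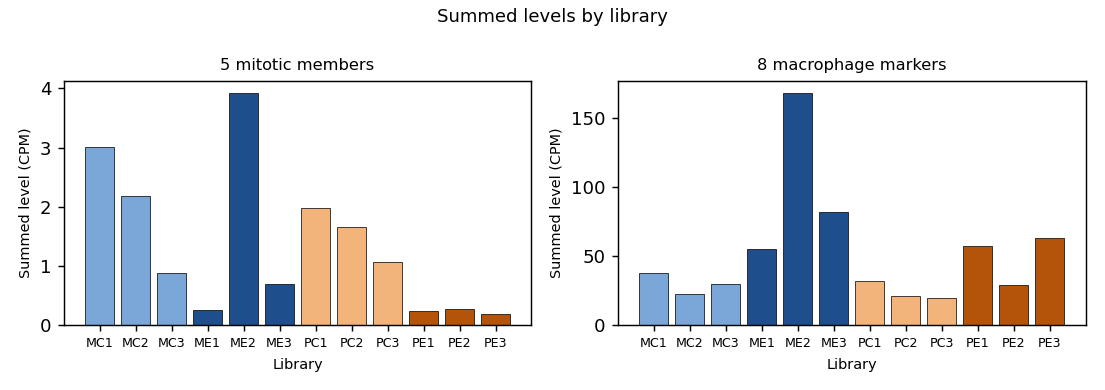
Summed level in CPM (y axes, from 0) in each library (x axes) of 5 mitotic members (left) and 8 macrophage markers (right). ME2 is the highest library in both, at 3.93 and 169 CPM. On the left the PE libraries lie at 0.187 to 0.272 CPM, with ME1 at 0.248 CPM. The 5 mitotic members were listed in comparisons with PE alone, so that a differing PE group was largely fixed by the listing.

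With ME replicate 2 left out, 2 mitotic members were called for diet over both breeds. CDC20 then had a Log2FC of -2.12 ± 0.44 (edgeR adjusted p = 0.0327, against 0.333 with all libraries). KIF11 was called as well (adjusted p = 0.0185), though its fitted size depends on the PE group at 0. CENPF reached -3.15 ± 0.80 (adjusted p = 0.0592) and KIF20A -2.30 ± 0.64 (adjusted p = 0.0887), so neither was called. The number of members called was 6 in that fit, and CDK19 was no longer among them (adjusted p = 0.0860). The share of all genes called in that fit is not given here, and with all libraries it was 28.6%. CDC20 and KIF11 were listed in comparisons with PE alone, so that their calls describe genes already selected.

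Replication helicase genes measured higher in the restricted groups, though none passed the adjusted threshold. The MCM proteins form the ring that unwinds DNA at each fork, and MCM10 joins it when origins fire. MCM10 had 6, 8 and 4 counts in MC, 20, 59 and 21 in ME and 31, 12 and 34 in PE. At 0.192, 0.281 and 0.141 CPM every MC library lay below the ME libraries, at 0.497, 0.705 and 0.443 CPM, and the PE libraries, at 0.634, 0.408 and 0.636 CPM. The Log2FC was 1.41 ± 0.39 in MC vs. ME (edgeR adjusted p = 0.211) and 1.44 ± 0.39 in MC vs. PE (adjusted p = 0.153). These 2 comparisons share the MC libraries, and MC and PE differ in breed as well as diet.

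MCM7, a core subunit, measured 7.54, 6.86 and 8.05 CPM in MC and 10.7, 12 and 13.0 CPM in ME (Log2FC 0.65 ± 0.17, adjusted p = 0.183). MCM4, another core subunit, measured 1.60, 2.18 and 1.84 CPM in MC and 2.41, 3.63 and 3.34 CPM in ME (Log2FC 0.73 ± 0.24, adjusted p = 0.262). MCM6 measured 0.751, 1.25 and 1.07 CPM in PC, 1.78, 1.60 and 1.78 CPM in PE and 1.79, 3.57 and 2.01 CPM in ME. It was higher in PE than in PC by 0.75 ± 0.28 and lower in PC than in ME by 1.26 ± 0.36 on the log2 scale (adjusted p = 0.225 and 0.177). In each of these comparisons the groups did not overlap, and without ME replicate 2 the Log2FC in MC vs. ME was 1.18 for MCM10, 0.65 for MCM7 and 0.61 for MCM4.

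**Figure D4:**
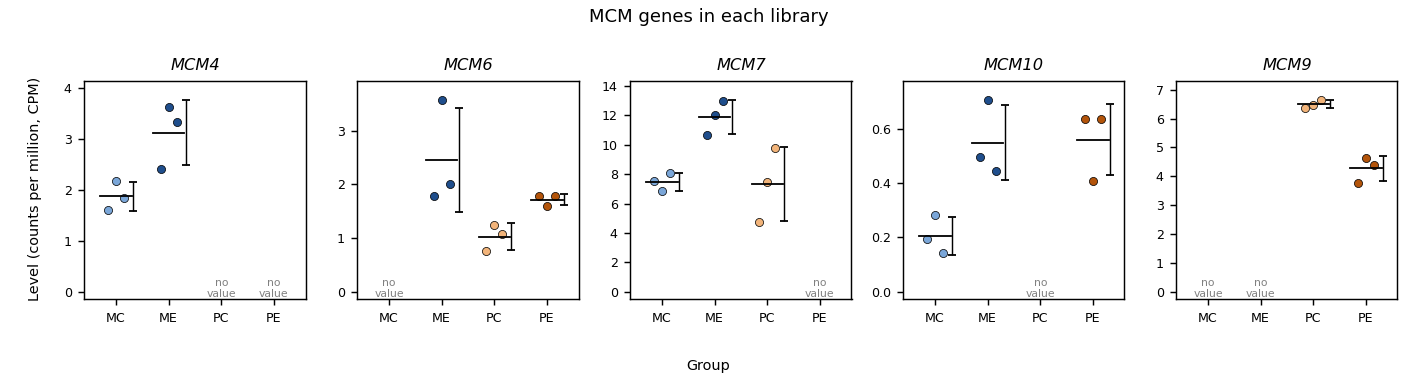
Level in CPM (y axis) by group (x axis) of 5 MCM genes. Points are libraries, horizontal lines are group means and bars are 1 SD (n = 3), and a group without counts in a deposited table is marked as having no value. MCM4, MCM6, MCM7 and MCM10 are higher in the restricted groups that have values, and MCM9 is lower in PE than in PC.

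MCM9 carries the family name but works with MCM8 in DNA repair rather than in the fork helicase. It measured 6.38, 6.48 and 6.64 CPM in PC and 3.78, 4.63 and 4.40 CPM in PE (Log2FC -0.61 ± 0.18, adjusted p = 0.159). POLD2, a subunit of DNA polymerase delta, measured 8.47, 8.93 and 6.67 CPM in MC, 9.51, 11.4 and 5.50 CPM in PC and 4.49, 3.91 and 5.17 CPM in ME. ME was below both control groups in every library, with a Log2FC of -0.84 ± 0.19 in MC vs. ME (adjusted p = 0.159). With mapped reads alone the POLD2 value stayed negative, but 0 members were lower there at an unadjusted p under 0.05. POLDIP2, which binds polymerase delta but is not one of its subunits, had a Log2FC of -0.48 ± 0.16 in MC vs. PE (adjusted p = 0.230).

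Over all members of MC vs. ME, 5 of 14 were higher and 8 of 14 lower in ME at an unadjusted p under 0.05, where 43.2% and 42.5% of the 1779 genes were. With mapped reads alone the Log2FC of all genes moved by a median of 0.89 and 11 of 14 members were positive, 5 of which (CDK8, CDK16, CDC34, KIF1C and KIF13B) had been negative. The edgeR test called 0 of 14 at an adjusted p under 0.05, where 0.337% of the genes were called, and DESeq2 called TONSL (adjusted p = 0.000607) and 12% of the genes. MC and ME did not overlap for 12 of 14 members, where 70.6% of the genes did not. Without ME replicate 2, edgeR called TONSL too (adjusted p = 0.0384).

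**Figure D5:**
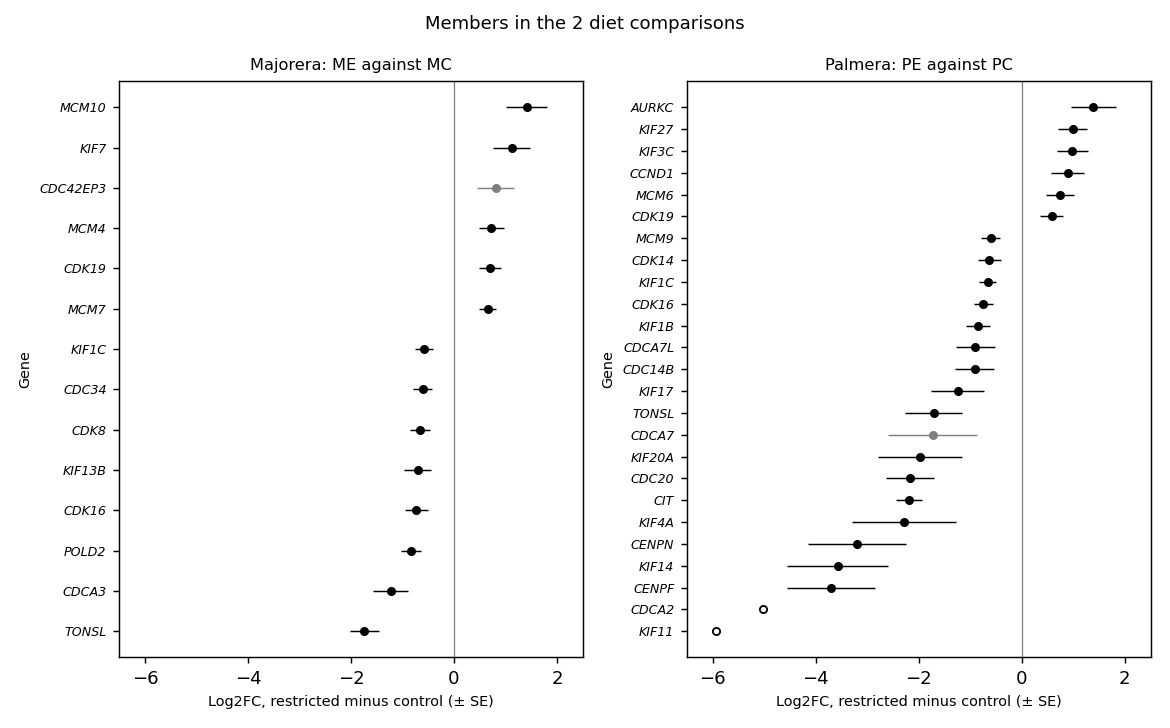
Log2FC of restricted minus control (x axis, bars are 1 SE, n = 3 per group) for each member listed (y axis) in MC vs. ME (left) and PC vs. PE (right). Black points have an unadjusted p under 0.05, grey points do not, and open circles are genes at 0 in every PE library, whose fitted value is no bound. CDC20, the CENP genes and the mitotic kinesins lie at -1.98 or below on the right and are not listed on the left, where CDK8, CDK16, CDC34, KIF1C and KIF13B turn positive with mapped reads alone.

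Cyclin D1 and the Aurora kinase AURKC were among the few members higher in PE. CCND1, which carries growth signals into the cycle, measured 1.19, 0.970 and 1.51 CPM in PC and 2.37, 1.46 and 2.94 CPM in PE, with 1 pair of libraries crossing (Log2FC 0.90 ± 0.32, adjusted p = 0.211). AURKC, which is best known from the meiosis of germ cells, had 12, 7 and 6 counts in MC, 7, 7 and 10 in PC and 24, 13 and 54 in PE, with a Log2FC of 1.39 ± 0.44 in PC vs. PE (adjusted p = 0.175). CDC25B, a phosphatase that activates CDK1, measured 2.36, 5.91 and 3.17 CPM in ME and 2.07, 1.60 and 1.39 CPM in PC (Log2FC -1.18 ± 0.37 in ME vs. PC, adjusted p = 0.203), and -0.72 ± 0.31 without ME replicate 2. KIF20B, a motor of cytokinesis, was likewise lower in PC, at 0.407, 0.50 and 0.660 CPM, than in ME, at 1.12, 1.47 and 1.16 CPM (Log2FC -1.25 ± 0.31, adjusted p = 0.159).

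CDCA7, a MYC-responsive gene of chromatin, was decided by 1 goat. PC replicate 3 had 63.1 CPM and the other 11 libraries lay between 3.69 and 16.5 CPM. Its Log2FC in PC vs. PE was -1.73 ± 0.86 with all libraries and -0.13 ± 0.62 without PC replicate 3. Its relative CDCA7L was also highest in that library, at 12 CPM against 3.42 to 5.22 CPM in the other PC and PE libraries.

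The transport kinesins split. KIF1C, which carries vesicles and messenger RNA, ran from 17.3 to 20.9 CPM in the 6 control libraries (median 18.6 CPM) and from 10.5 to 14.8 CPM in the restricted ones (median 11.9 CPM), without overlap. Its Log2FC over both breeds was -0.61 ± 0.11 (edgeR adjusted p = 0.0169, exact permutation p = 0.00216). KIF1C was listed in MC vs. ME, PC vs. PE and MC vs. PE alone, so that its separation by diet was largely fixed by the listing. KIF1B, a mitochondrial and vesicle motor, measured 15.1, 13.7 and 20.6 CPM in PC, 10.6, 10.3 and 6.79 CPM in PE and 11.5, 10.4 and 8.70 CPM in ME, and PC lay above both. KIF13B was lower in ME than in PC, at 4.72, 3.85 and 4.54 CPM against 9.07, 7.51 and 7.93 CPM (Log2FC 0.92 ± 0.19 in ME vs. PC, edgeR adjusted p = 0.144, DESeq2 adjusted p = 0.0493).

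KIF7, a kinesin of the primary cilium in hedgehog signalling, was higher in both restricted groups than in MC, from which PE differs in breed as well. It measured 0.417, 0.352 and 0.706 CPM in MC, 0.894, 1.17 and 1.18 CPM in ME and 1.57, 0.783 and 1.5 CPM in PE, and MC overlapped neither. KIF27, its close relative, ran from 0.688 to 1.13 CPM in MC and PC and from 1.33 to 1.96 CPM in PE. KIF3C, a subunit of a kinesin that moves along cilia and axons, ran from 0.492 to 0.881 CPM in MC and PC and from 1.16 to 1.63 CPM in PE. KIF27 and KIF3C thus lay apart from both control groups, with Log2FC of 0.99 ± 0.28 and 0.98 ± 0.30 in PC vs. PE and of 0.90 ± 0.29 and 1.08 ± 0.30 in MC vs. PE, with adjusted p between 0.144 and 0.216. KIF17, a motor of dendrites and cilia, had 14, 194 and 93 counts in ME and 54, 18 and 12 in MC, against 9, 28 and 38 in PC and 12, 9 and 23 in PE. Its groups overlapped, and the Log2FC was -2.23 ± 0.66 in ME vs. PE (adjusted p = 0.732). KIF21A, a motor that slows microtubule growth, was the 1 member higher in PE than in ME at an unadjusted p under 0.05, at 2.43, 2.96 and 1.74 CPM against 1.76, 1.16 and 1.33 CPM. The groups overlapped, and the Log2FC of 0.75 ± 0.28 (adjusted p = 0.872) was 0.60 ± 0.30 without ME replicate 2.

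CDC34, the ubiquitin-conjugating enzyme that serves the G1 ligases, measured 18.1, 17.6 and 15.9 CPM in MC and 13.2, 9.46 and 11.5 CPM in ME (Log2FC -0.61 ± 0.18, adjusted p = 0.238, and 0.22 with mapped reads alone). CDC14B, a phosphatase that opposes CDK1, measured 8.02, 15.2 and 10.4 CPM in MC, 6.60, 12.1 and 15.4 CPM in PC and 4.44, 9.32 and 4.53 CPM in PE. It had a Log2FC of -0.91 ± 0.38 in PC vs. PE and -0.90 ± 0.33 in MC vs. PE, and its groups overlapped in both. CDC42EP4 measured 2.18, 2.25 and 3.14 CPM in MC and 5.40, 3.27 and 3.46 CPM in PE (Log2FC 0.66 ± 0.26, adjusted p = 0.315). CDC42EP3 ran from 2.26 to 3.24 CPM in MC and from 2.85 to 7.97 CPM in ME and had a Log2FC of 0.81 ± 0.36 in MC vs. ME, of which 0.29 ± 0.26 was left without ME replicate 2.

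Between the breeds on the control diet, 4 members were listed in MC vs. PC, and CIT, CDK12 and CDK18 had an unadjusted p under 0.05. Of these 2 were higher and 1 was lower in PC, where 36.7% and 53.6% of the 755 genes were. The edgeR test and DESeq2 each called 0 of 4, where edgeR called 0.132% of the genes and DESeq2 0.662%, and MC and PC did not overlap for 3 of 4 members, where 63.8% of the genes did not. The number higher was 1 without MC replicate 1 and 1 without PC replicate 3. In ME vs. PC, which differ in breed and diet, 7 of 14 members were higher and 5 of 14 lower in PC, where 36.9% and 51.2% of the 2282 genes were. There edgeR called 0 of 14 at an adjusted p under 0.05, with 0.0% of the genes called, and DESeq2 called CIT and KIF13B and 9.2% of the genes. ME and PC did not overlap for 11 of 14 members, where 74.1% of the genes did not. The number lower was 3 without PC replicate 1.

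Breed over both diets gave 0 calls among the 13 members by edgeR and by DESeq2, where edgeR called 0.071% of the 1408 genes and DESeq2 0.852%. At an unadjusted p under 0.05, CIT was higher in Palmera (0.66 ± 0.21) and KIF11, CENPF, KIF20A, KIF17 and CDC20 were lower, where 7.95% of the genes were higher and 15.1% lower. CIT was listed in comparisons with PC alone and the other genes named in comparisons with PE alone. These breed values thus describe genes already selected for a differing Palmera group. CENPF had -2.33 ± 0.95 and CDC20 -1.22 ± 0.54. Without ME replicate 2 these became -1.11 ± 0.89 and -0.54 ± 0.45, and 1 member was lower at that threshold. Leaving out other libraries also lowered the number, to 1 without MC replicate 1, 2 without PC replicate 1, 3 without PC replicate 3 and 3 without PE replicate 1.

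The response to restriction was tested for a difference between the breeds on the same 13 members. At an unadjusted p under 0.05, 0 were higher and 3 were lower in Palmera than in Majorera, namely KIF11, CENPN and CIT, where 8.52% and 7.67% of the genes were. KIF11 and CENPN were listed in comparisons with PE alone and CIT in comparisons with PC alone, so that these values describe genes already selected. The edgeR test and DESeq2 each called 0 of 13 at an adjusted p under 0.05, where edgeR called 0.071% of the genes and DESeq2 0.568%. With mapped reads alone 9 of 13 were lower at an unadjusted p under 0.05, and the Log2FC of all genes moved by a median of -0.95. The number lower was 6 without ME replicate 1, and 1 was higher without PE replicate 3.

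Proliferation genes outside the symbol rule were taken from a list of 96, of which 34 stood in at least 1 table and 7 had all 12 libraries. These 34 had likewise been listed for differing between groups, so that their values describe genes already selected. In PC vs. PE 15 were listed, 12 lower and 2 higher in PE at an unadjusted p under 0.05, where 44.3% and 47.8% of the genes tested were lower and higher. In MC vs. PE 16 were listed, 14 lower and 1 higher, where 49.9% and 41.4% of the genes were. In ME vs. PE 16 were listed, 14 lower and 0 higher, where 42.9% and 30.9% of the genes were. MC vs. ME listed 1. After adjustment the edgeR test called 0 of them in these 4 comparisons, where it called 0.0442% of the genes in PC vs. PE, 0.589% in MC vs. PE, 0.0% in ME vs. PE and 0.337% in MC vs. ME.

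ME replicate 2 stood apart from the other ME libraries in these genes as well. ANLN, which scaffolds the cleavage furrow, had 3, 80 and 3 counts in the ME libraries, DLGAP5, a spindle protein, 0, 40 and 0, and ASPM, another spindle protein, 0, 42 and 1. Without ME replicate 2 the number lower in PE at an unadjusted p under 0.05 went from 14 to 4 of 16, and DLGAP5 and ASPM turned to Log2FC of 1.87 and 0.33. The Log2FC of ANLN went from -3.32 to -0.81 and that of MKI67 from -3.06 to -1.24. The number lower was also 4 without PE replicate 1, 7 without PE replicate 2 and 4 without PE replicate 3, with all 16 Log2FC below 0 in each.

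MKI67, whose protein marks every cycling cell, had 67, 38 and 25 counts in MC, 91, 38 and 33 in PC, 7, 215 and 21 in ME and 3, 1 and 14 in PE. All PE libraries lay below all controls, and ME replicate 2, at 2.57 CPM of MKI67, was exceeded by PC replicate 1 alone, at 2.85 CPM. Its Log2FC was -3.64 ± 0.65 in PC vs. PE (edgeR adjusted p = 0.0799) and -3.45 ± 0.61 in MC vs. PE (adjusted p = 0.0800). RRM2, which makes the building blocks of DNA, had 16, 11 and 6 counts in MC, 22, 4 and 7 in PC, 1, 73 and 5 in ME and 0, 2 and 1 in PE. MKI67 and RRM2 were listed in comparisons with PE alone, so that a differing PE group was largely fixed by the listing. Geminin, which blocks relicensing and is encoded by GMNN, was an exception with 38, 22 and 34 counts in PC and 95, 43 and 111 in PE.

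Of a list of 22 cell cycle inhibitors, 7 stood in a table. At an unadjusted p under 0.05, the PE group was above PC for 5 of the 6 listed in that comparison and below it for 0, where 47.8% and 44.3% of the genes tested were higher and lower. In MC vs. PE 3 of 4 were higher and 1 lower in PE, where 41.4% and 49.9% of the genes were. In MC vs. ME 1 of 3 was higher and 0 lower in ME, where 43.2% and 42.5% were, and over both breeds 2 of 3 were higher and 0 lower under restriction, where 40.6% and 36.8% were. CDKN1A, which encodes the CDK inhibitor p21, measured 0.225, 0.141 and 0.459 CPM in MC, 1.19, 1.79 and 1.1 CPM in ME, 0.375, 0.125 and 0.252 CPM in PC and 2.70, 0.476 and 1.18 CPM in PE. No control library reached a restricted one. CDKN1A was listed in every comparison of a control with a restricted group, so this separation was largely fixed by the listing. Its Log2FC was 2.29 ± 0.46 in MC vs. ME, 2.54 ± 0.65 in PC vs. PE and 2.42 ± 0.45 over both breeds, where it was called (edgeR adjusted p = 0.0164). TOB1, an antiproliferative protein, measured higher in PE than in PC by 0.78 ± 0.24 on the log2 scale, and BTG2, of the same family, by 1.27 ± 0.35 (adjusted p = 0.162 and 0.135). In the Majorera groups TOB1 measured 11.2 to 14.5 CPM in MC and 7.25 to 13.1 CPM in ME, with overlap, and over both breeds its Log2FC was 0.25 ± 0.18 (edgeR adjusted p = 1). GADD45G was an exception with a Log2FC of -1.12 ± 0.55 in PC vs. PE.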

How the data were processed

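Expected counts were estimated by the authors with RSEM 1.2.17 from stranded poly(A) read pairs that Bowtie2 2.2.3 had aligned to the assembly CHIR_1.0, and were deposited for single libraries without normalization. The p-values and FDR (an adjusted p) that the authors deposited came from edgeR 3.2.4 and served only to find the p limit of each table and the number of genes tested (14469 to 15221 per comparison). Their fold changes and enrichment sheets were not used.

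Counts were rounded and tested with edgeR 4.0.16 (quasi-likelihood F test, two-sided) and limma 3.58.1 in R 4.3.3, over every gene of a table, with Benjamini-Hochberg adjustment over as many genes as entered the authors' own test. Library sizes were the mapped reads given by the study times TMM factors (0.64 to 2.00) over 1998 rows of the study's supplementary count table, which were not selected for differing and also gave the dispersion trend and its prior, using rows that reached 1 CPM in 3 or more libraries. In the 394 genes present in both sources, 3411 of 3411 counts matched within 1%. Each pair of groups was fitted alone, and diet, breed and their interaction were fitted on 12 libraries over 1408 genes. Exact permutation tests used log2(CPM + 0.5). DESeq2 1.42.0 was an alternative, beside mapped reads alone, median-ratio size factors, a minimum of 100 counts, the study's own rule for a differentially expressed gene, a replicate block, leaving out each library, and 1 fit of all 12 libraries. The tests were tested on simulated data. Lists, ratios and figures were made with Python 3.11.15, pandas 2.3.3, numpy 2.4.6 and scipy 1.17.1.

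The members and lists were chosen with earlier results of these data known. Named genes were CIT, TONSL, the 5 highest and 5 lowest members at an unadjusted p under 0.05 in each pair of groups, the 5 with the smallest p for diet, breed and the interaction, and members of the cyclin, mitotic kinesin, centromere, checkpoint and helicase lists. Any other member or outside gene named was chosen after its values were seen. Of the 52 members, 51 matched by gene ID in a RefSeq table of assembly ARS1.2, which is another build, so no coordinates or sequences are given. Replicates were separate goats. Reads came from a strand-specific kit, but how strand was used in counting is not given in the sources used here. Depth limits the mitotic genes most, since many have fewer than 10 counts per library.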

Additional observations from a re-analysis of the deposited data

Results flagged for a closer look

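For 3 members the response to feed restriction differed between the breeds at an unadjusted p under 0.05 in the edgeR fit of the 12 libraries, and none of them passed the adjusted threshold. Each was listed only in comparisons with a single Palmera group, PE for KIF11 and CENPN and PC for CIT. A response that differs was thus largely fixed by the listing. KIF11 had a difference of -6.74 on the log2 scale (Palmera minus Majorera, edgeR adjusted p = 1.00), a fitted size that depends on the PE group being at 0, and it was -4.13 without ME replicate 2. CENPN had a difference of -2.76 ± 1.26 (SE, n = 3 per group, edgeR adjusted p = 1.00), and -2.12 ± 1.34 without ME replicate 2. CIT had a difference of -1.87 ± 0.42 (edgeR adjusted p = 0.844), and -2.06 ± 0.41 without ME replicate 2, with all 3 PC libraries above all PE libraries and with overlap between MC and ME.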

How the results depend on the processing

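Over the named genes, 745 of 816 values under the alternatives kept their direction and their side of the threshold, 22 fell short of it, 37 newly passed it and 12 changed sign. With mapped reads alone CDK16 (0.089) and KIF13B (0.14) turned positive in MC vs. ME and the TONSL interaction became -0.91. Leaving out each library gave TONSL -0.41 to 0.46 for the interaction and -0.30 to 0.14 for breed. The causes were not tested.

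With mapped reads alone the members called at an adjusted p under 0.05 were 3 in MC vs. ME, 9 in PC vs. PE, 12 in ME vs. PE, 4 in MC vs. PE, 6 in ME vs. PC and 1 for diet. The Log2FC of all genes moved as well, by a median of -0.60 in ME vs. PE. The share of all genes called is given for the main fits and for DESeq2 alone. Counts under the other settings, leaving out libraries and the replicate block included, cannot be set against it. At an unadjusted p, 0 were lower in MC vs. ME, 1 higher in PC vs. PE, 0 higher and 13 lower in ME vs. PE, 10 lower in MC vs. PE, 2 higher in ME vs. PC, 4 lower for diet, 0 higher for breed and 9 lower for the interaction. DESeq2 called 1 in MC vs. ME, 1 in PC vs. PE, 2 in MC vs. PE and 2 in ME vs. PC, and had 1 higher in MC vs. PC. Among members above 100 counts in at least 1 library, fewer genes were tested, with 3 higher in MC vs. ME, 2 higher and 9 lower in PC vs. PE, 0 lower in MC vs. PC, 2 lower in ME vs. PE, 2 higher and 8 lower in MC vs. PE, 4 lower for diet, 1 lower for breed and 1 lower for the interaction. A single fit of all 12 libraries, limited to genes with counts in each, had 1 higher and 3 lower in MC vs. ME, 1 higher and 8 lower in PC vs. PE, 1 higher and 0 lower in MC vs. PC, 1 higher and 8 lower in MC vs. PE, and 1 called and 1 lower in ME vs. PC. The study's rule for a differentially expressed gene left 1 for diet.

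Leaving out each library gave 0 to 1 calls in MC vs. ME and in PC vs. PE, 0 to 2 in MC vs. PE, 1 to 6 for diet, and 0 in the other comparisons. At an unadjusted p the ranges were 4 to 6 higher and 7 to 8 lower (MC vs. ME), 3 to 6 and 12 to 18 (PC vs. PE), 1 to 3 and 1 to 1 (MC vs. PC), 0 to 2 and 3 to 13 (ME vs. PE), 5 to 7 and 11 to 19 (MC vs. PE), 7 to 8 and 3 to 5 (ME vs. PC), 1 to 1 and 5 to 9 (diet), 1 to 2 and 1 to 6 (breed), and 0 to 1 and 2 to 6 (interaction).

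Deviations of same-numbered libraries correlated between -0.32 and 0.23, with no comparison in which all 3 pairs exceeded 0.1. In ME vs. PC and PC vs. PE all 3 were positive, at 0.0788 to 0.166 and at 0.0069 to 0.113. So few pairs cannot decide whether the numbers pair the goats. With the replicate block 3 members were called in PC vs. PE and 3 for diet, and 0 were higher in ME vs. PE at an unadjusted p. Depth limits the mitotic genes, many of which have under 10 counts per library.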
